A study of Mus musculus with 319 samples.

Results

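Hbb-b1 and Hbb-b2 are the adult beta globin genes, and every probe that the platform's probe-to-gene table gives to either of them was taken. Each gene had 1 probe (10024408151 for Hbb-b1 and 10024408548 for Hbb-b2), so the account rests on 2 probes of 23382 and on 319 arrays, with no blank value for either probe. The samples were muscle RNA, with no muscle named, of F2 mice from a cross of C57BL/6J with C3H/HeJ, all on an ApoE null background and all fed a high fat diet from 8 to 24 weeks of age. Each array compared 1 animal, labelled with Cy3, with a common pool of equal parts of all samples, labelled with Cy5, so a value is a log2 ratio of animal to pool and not a level. Apart from a single animal labelled male, the labels name no animal's sex, and they give neither genotype nor batch, so all arrays form 1 group.

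Adult haemoglobin pairs alpha globin chains with beta globin chains around haem, and red cell precursors fill with both transcripts before they lose their nucleus. Reticulocytes, the young red cells of the blood, still hold globin RNA, so blood within a tissue sample carries it. The beta globin genes lie in a cluster on chromosome 7, next to the embryonic genes of the family. Mouse strains differ there: C57BL/6 carries the "single" haplotype, whose adult genes are named Hbb-bs and Hbb-bt, and C3H/HeJ carries the "diffuse" haplotype, whose adult genes are Hbb-b1 and Hbb-b2. These genes are near-identical, and the probe sequences were not used here, so either probe may carry signal of the other genes.

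The promoters of the adult genes are shown because the globin transcripts are compared with each other below. RefSeq's promoter table (GRCm38.p6) was matched for Hbb-bs, Hbb-bt and Hba-a1, an adult alpha globin gene. Each line gives the 250 bases before the start site, 5′ to 3′ on the gene's strand, with matches to 4 motifs on either strand in capitals. The motif CACCC is usually named for Klf1, the motif CCAAT for the factors that bind this box, the motif GATAA for Gata1 and the motif TATAA for the TATA box. Hbb-bs is at chr7:103827929-103828178 on the minus strand, Hbb-bt at chr7:103813924-103814173 on the minus strand and Hba-a1 at chr11:32283422-32283671 on the plus strand.
Hbb-bs: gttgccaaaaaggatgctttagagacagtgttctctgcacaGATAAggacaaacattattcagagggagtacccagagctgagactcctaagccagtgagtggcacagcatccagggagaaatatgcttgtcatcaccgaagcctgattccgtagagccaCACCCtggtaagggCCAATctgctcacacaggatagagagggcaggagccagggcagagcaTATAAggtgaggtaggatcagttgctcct
Hbb-bt: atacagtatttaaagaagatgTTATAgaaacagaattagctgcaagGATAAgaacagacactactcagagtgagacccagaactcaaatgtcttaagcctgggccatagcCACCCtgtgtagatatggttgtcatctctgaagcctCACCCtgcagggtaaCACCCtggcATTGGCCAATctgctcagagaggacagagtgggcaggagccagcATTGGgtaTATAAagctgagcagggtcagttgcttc
Hba-a1: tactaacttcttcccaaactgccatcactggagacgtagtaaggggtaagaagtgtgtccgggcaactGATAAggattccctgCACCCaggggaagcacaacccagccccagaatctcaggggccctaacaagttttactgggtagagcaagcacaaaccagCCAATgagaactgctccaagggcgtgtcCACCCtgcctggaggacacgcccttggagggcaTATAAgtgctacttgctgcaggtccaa
All 4 motifs matched in each of the 3 promoters, against 0.968% of 32851 promoters of this length. CACCC alone matched in 52.0% of them, CCAAT in 33.8%, GATAA in 22.6% and TATAA in 22.8%. The TATAA match nearest the start site began 29 bases before it in Hbb-bs, 28 in Hbb-bt and 27 in Hba-a1. The CCAAT match nearest to that began 76, 75 and 88 bases before it on the gene's strand. In Hbb-bt, a match on the other strand adjoined that one without overlap. Hbb-bs and Hbb-bt were identical at 69.3% of 257 aligned columns, and Hbb-bs and Hba-a1 at 47.8% of 268.

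Across the whole array set, medians of log2 ratios ran from -0.08 to 0.14 and SDs over probes from 0.213 to 1.08. The direction of the ratio was read from the Y-linked genes Eif2s3y, at a median of 1.08 on 155 arrays and -5.62 on 164, and Kdm5d, at 0.92 on 154 and -2.77 on 165. Of 50721 pairs of arrays, 3735 correlated below -0.3 over all probes. Since the pool is the average of all animals and the dyes are stated, the direction was kept. Marker genes of a cell type were each scaled to their own SD and averaged to a score. Each score was split into a low and a high side where the sum of squares between sides was largest. Such a cut is called a gap here, though values can run on through it. It left 62 arrays above it for B cell markers, 43 for neutrophil markers and 33 for keratinocyte markers, and 36 arrays had an outlying SD. Of 20 skeletal muscle markers only 3 genes had a tested probe, and ratios to a pool of the same tissue cannot check a tissue label by level.

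Beta globin was among the most variable transcripts between these animals. The Hbb-b1 log2 ratio was -3.91 on the lowest array, -0.40 at the median and 2.12 on the highest (SD 1.13, n = 319). Hbb-b2 ran from -3.85 over -0.38 to 2.22 (SD 1.14, n = 319). The SD of Hbb-b1 was above that of 98.6% of tested probes and the SD of Hbb-b2 above that of 98.7%. From the lowest to the highest array, Hbb-b1 spanned 65.2-fold and Hbb-b2 67.1-fold. Between the 5th and the 95th percentile the spans were 12.9-fold and 13.6-fold.

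The spread was uneven, with a longer tail towards low values. Hbb-b1 was below -1 on 94 arrays and above 1 on 16, and Hbb-b2 on 95 and 17. A log2 ratio below -2 was found on 43 arrays for Hbb-b1 and 44 for Hbb-b2. The quartiles of Hbb-b1 were -1.23 and 0.13. On the linear scale the mean ratio to the pool was 0.855 for Hbb-b1 and 0.867 for Hbb-b2. Neither gene's values met the rule set for 3 evenly spaced groups of arrays in the proportion 1:2:1, the numbers in which an F2 cross divides at 1 locus. The rule asks for an improvement of the Bayesian information criterion (BIC) of over 10 with groups over 3 SDs apart, and 0.837% of the other probes met it. For Hbb-b1 the BIC changed by -5.80, with groups 0.373 SDs apart, and for Hbb-b2 by -5.80, with 0.409 SDs.

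On the arrays at both ends of Hbb-b1, the globins lay on the same side of the pool. Animal 112 had the lowest Hbb-b1, at -3.91, with Hbb-b2 at -3.84, alpha globin Hba-a1 at -3.78 and Alas2, the erythroid enzyme of the first step of haem synthesis, at -0.61. In animal 87 the same genes stood at -3.74, -3.85, -2.79 and -0.73, and in animal 350 at -3.66, -3.49, -3.34 and -0.51. Animal 58 had the highest Hbb-b1, at 2.12, with Hbb-b2 at 2.18, Hba-a1 at 1.29 and Alas2 at 1.02. Animal 355 had 2.11, 2.22, 1.79 and 1.55, and animal 114 had 2.03, 1.97, 1.73 and 0.81. These arrays were picked by Hbb-b1, which Hbb-b2 nearly equals, so the values of both were set by that choice. Hba-a1 and Alas2 were below the pool in the 3 lowest animals and above it in the 3 highest. Ngp, a neutrophil granule protein, did not separate these ends: it was at 0.54, -3.25 and -3.28 in the low animals and at -2.76, -2.53 and -3.15 in the high ones. Between the ends, alpha and beta globin parted on some arrays. Animal 75 had Hbb-b1 at -2.19 with Hba-a1 at 0.60, and animal 55 had -1.52 with 1.16, both named after their values were seen.

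The values also went with the animals' numbers in the labels. Among numbers 1 to 50 (44 arrays) the median Hbb-b1 ratio was 0.22 with an SD of 0.66 and none was below -1.39. In the next 6 blocks of 50 numbers the medians ran from -0.59 to -0.28 and the lowest values from -3.91 to -2.98. The last 9 arrays had a median of -0.72. Alas2 was likewise at a median of 0.16 in the first block and between -0.17 and -0.04 in the later ones. Over 319 arrays the Pearson r of Hbb-b1 with the number was -0.221 (permutation p = 0.00013, adjusted 0.000406, Spearman rho -0.237, adjusted 0.000125, r -0.243 without the 2 farthest arrays). For Hbb-b2 it was -0.211 (permutation p = 0.00026, adjusted 0.000722). The labels do not say what the number stands for beyond the animal, and its part in the results was not tested other than by fits with blocks of numbers as a term.

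**Figure D1:**
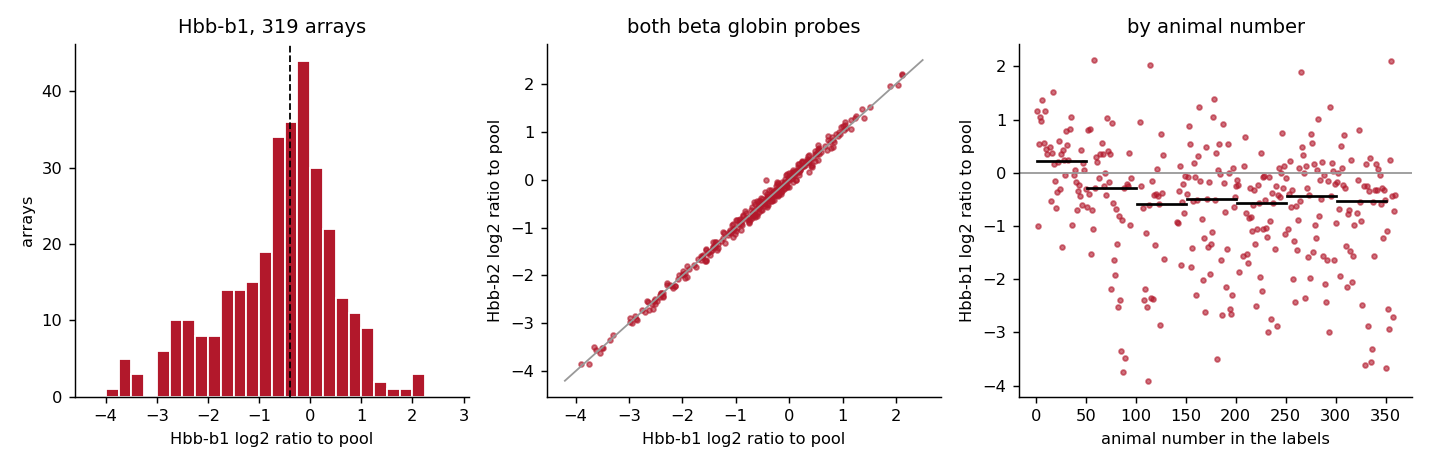
Beta globin log2 ratios to the pool on 319 arrays: a histogram of Hbb-b1 with its median dashed, Hbb-b2 against Hbb-b1 with the line of equality, and Hbb-b1 by animal number with the median of each block of 50 numbers as a black bar (the last 9 arrays without a bar). Hbb-b1 has a longer tail towards low values, both probes lie along the line, and the first block, at a median of 0.22, has no array below -1.39.

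The 2 beta globin probes were almost interchangeable. Their log2 ratios had r = 0.997 over 319 arrays (Spearman rho 0.994, r 0.997 without the 2 farthest arrays, permutation p = 1e-05 for both, the smallest that 100000 resamples can give, adjusted 5e-05 and 4.17e-05). The difference Hbb-b1 minus Hbb-b2 was -0.43 at its lowest, -0.01 at the median and 0.22 at its highest (SD 0.088). It was within 0.1 log2 units of 0 on 214 arrays, and its variance was 0.615% of that of Hbb-b1. Because the probes may share signal, this closeness does not show that the genes had the same level.

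Alpha globin followed beta globin nearly as closely, and Alas2 followed on a smaller scale. Hba-a1 was -3.78, -0.34 and 1.83 at its lowest, median and highest on 309 arrays (10 blank), a range close to that of Hbb-b1. Its r with Hbb-b1 was 0.917 (rho 0.880, r 0.913 without the 2 farthest arrays) and with Hbb-b2 0.911 (rho 0.872, r 0.907). Alas2 ran from -0.93 over -0.08 to 1.67 on 319 arrays, a narrower range. Its r with either gene was 0.865 (rho 0.916 with Hbb-b1 and 0.911 with Hbb-b2, r 0.865 without the 2 farthest arrays). The permutation p was 1e-05 for r and rho of all 4 pairs, adjusted 5e-05 for r and 4.17e-05 for rho over the 25 relations computed. Within the 8 blocks of animal numbers, r of Hbb-b1 with Hba-a1 was between 0.709 and 0.976 and with Alas2 between 0.792 and 0.927. Fewer red cells or precursors in a sample and less globin RNA in each cannot be told apart in bulk tissue.

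Slc4a1, the band 3 anion exchanger of the red cell membrane, went with beta globin weakly. It was at -1.05 at its lowest, -0.05 at the median and 2.42 at its highest, with 16 arrays above a gap and 303 below. This gap was narrow, from 0.51 (animal 59) to 0.64 (animal 300). On the 303 arrays r with Hbb-b1 was 0.236 (permutation p = 7e-05, adjusted 0.00025, rho 0.249, r 0.223 without the 2 farthest). On the other 16 it was 0.0890 (permutation p = 0.744, adjusted 0.798, rho 0.174). For Hbb-b2 the values were 0.232 (adjusted permutation p = 0.00025) and 0.0837 (0.798).

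Ngp varied more than beta globin and was only weakly related to it. Its log2 ratio ran from -4.91 over -3.33 to 4.99 (SD 1.88), with 61 arrays above a gap and 258 below it. This gap was narrow too, from -1.28 (animal 198) to -1.11 (animal 336). On the 258 arrays r with Hbb-b1 was 0.156 (permutation p = 0.0120, adjusted 0.0230, rho 0.175, adjusted 0.00952, r 0.161 without the 2 farthest). On the 61 arrays it was 0.164 (permutation p = 0.205, adjusted 0.301, rho 0.0588, r 0.142). With Hbb-b2 r was 0.158 (adjusted permutation p = 0.0230) and 0.158 (0.309). After quantile normalization the r on the 258 arrays turned to -0.0269 with Hbb-b1 and -0.0223 with Hbb-b2, and with the first principal component removed to -0.0122 and -0.00397. Whether r differed between the arrays above and below the gap was not tested.

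**Figure D2:**
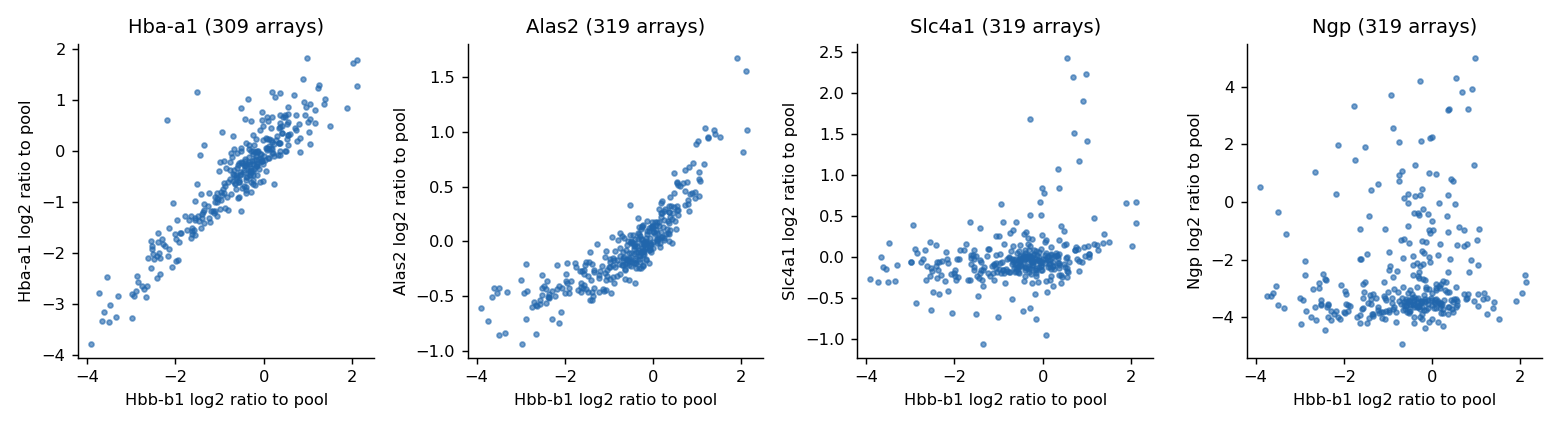
Log2 ratios to the pool of Hba-a1 (309 arrays), Alas2, Slc4a1 and Ngp (319 arrays each) against Hbb-b1, 1 point an array, with a scale of its own on each vertical axis. Hba-a1 and Alas2 rise with Hbb-b1 (r 0.917 and 0.865), while the 16 high Slc4a1 arrays lie at Hbb-b1 values from -0.94 to 2.11 and the 61 high Ngp arrays at values from -3.91 to 1.06.

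To find the probes that went with beta globin, each of the 23188 other tested probes was fitted on the Hbb-b1 ratio with limma. A slope is in log2 units of the probe per log2 unit of Hbb-b1, and a call needs a Benjamini-Hochberg adjusted p under 0.05 over all probes. With Hbb-b1, 1286 probes were higher (5.55%) and 1907 lower (8.22%). With Hbb-b2, 1322 were higher (5.70%) and 1885 lower (8.13%). Of the probes called higher, 1222 were shared, 95.0% of the Hbb-b1 list and 92.4% of the Hbb-b2 list. Of those called lower, 1798 were shared, 94.3% and 95.4%, which describes predictors that are themselves almost the same. The number called for Hbb-b1, 3193 in all, fell to 574 without the 36 arrays of outlying SD, 601 without the 62 above the B cell gap and 133 after quantile normalization. The share called higher was 40.3%, and 57.3% with array medians subtracted and 72.2% after quantile normalization, so the split between directions depends on the scaling.

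Close followers were few. With Hbb-b1, 3 probes had r above 0.9, 6 above 0.8 and 8 above 0.5, of which 3 had no current symbol, and none had r below -0.5. The closest named gene was Trp53rkb, a copy of a p53-regulating kinase gene. Trp53rkb was at -2.22, -0.28 and 2.26 at its lowest, median and highest, with a slope of 0.68 ± 0.0080 (SE) and r = 0.979. Cnot7, a subunit of the deadenylase complex that shortens mRNA tails, ran from -4.79 over -0.50 to 2.71 on 295 arrays, with a slope of 1.01 ± 0.017 and r = 0.962. Each of these genes had a single tested probe, and whether these probes detect the named transcript alone was not tested. Trp53rkb varied over a narrower range than the globins and Cnot7 over a wider one, and both had a higher r than Hba-a1.

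Hba-a1 came next, with a slope of 0.84 ± 0.021, and Alas2 rose with a slope of 0.29 ± 0.0094. A further pair of probes with r of 0.874 and 0.872 had no current symbol. Jup, the junction protein plakoglobin, had a slope of 0.094 ± 0.0066 (r = 0.626), on a range of -0.42 to 0.69. The platelet chemokine gene Ppbp had a slope of 0.34 ± 0.042 (r = 0.408). Cdr2, an antigen of cerebellar degeneration, had r = 0.421, Mkrn1-ps1, a pseudogene of the ubiquitin ligase gene Mkrn1, 0.405, and Cnga2, a cyclic nucleotide-gated channel subunit, 0.365. Col5a2, a collagen chain, had 0.334. The adjusted p of limma was at most 1.19e-06 for these 10 genes. With Hbb-b2 the same 10 were named, except that Rsad2, an interferon-induced antiviral protein, at r = 0.338, took the place of Col5a2.

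The genes that were lower where beta globin was higher had smaller r. Epc1, a chromatin regulator, was at -0.338 with Hbb-b1 and Ruvbl1, an ATPase of chromatin complexes, at -0.298. Fbf1, a cilium protein, Recql5, a DNA helicase, Thap7, Snw1, a splicing factor, Pecr, a peroxisomal enzyme, Cbx7, a polycomb protein, Cdk5rap3 and Lsm2, another splicing protein, were between -0.293 and -0.280. Slopes of the 10 ran from -0.065 to -0.024, so a doubling of Hbb-b1 went with a fall of at most 0.065 log2 units. Snw1 had another probe, at r = -0.0105, which was not called (limma adjusted p = 0.919). The other probes of Ruvbl1 and Cbx7 were at -0.292 and -0.220 and were called lower too. With Hbb-b2, Bop1, a ribosome assembly factor, took the place of Lsm2 (r = -0.278).

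Of the erythroid lists, 11 of 39 probes were called higher with Hbb-b1 by limma and none lower (2 lower at an unadjusted p under 0.05), beside 5.55% and 8.22% of all probes. These lists held 38 measured genes, and the median r of their probes was 0.0310, so most of these probes did not follow. Signal over background is not in the values, so whether dim signal kept a probe from following is unknown. With Hbb-b2 the counts were the same. Beta-like globin was represented by the embryonic gene Hbb-y alone, at -0.87, 0.05 and 0.82, with r = 0.0310, and it was not called (limma adjusted p = 0.741). Alpha-like globin was represented by Hba-a1 alone.

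In haem synthesis, 2 of 9 probes were called higher, against 5.55% of all probes. Beside Alas2, this was 1 of 2 probes of Slc25a37, the mitochondrial iron importer mitoferrin (r = 0.254, limma adjusted p = 0.000792); the other probe was at 0.0155. The enzymes Alad, Uros, Cpox and Ppox and the transporters Abcb10 and Slc25a38 were not called, with r from -0.133 to 0.0652. Alas2 is the red cell form of the first enzyme, while the later enzymes serve all cells.

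Of 13 red cell membrane probes, 3 were called higher, against 5.55% of all probes. Slc4a1 had a slope of 0.11 ± 0.018 (r = 0.310), Ermap, a red cell adhesion protein, 0.12 ± 0.031 (r = 0.212) and Epb42, which ties band 3 to the skeleton, 0.16 ± 0.047 (r = 0.184). The 10 others were Rhd and Rhag of the Rh complex, Kel and Xk of the Kell complex, Icam4, Bcam, Dmtn, Ank1, Add2 and Sptb. Their r ran from -0.0999 to 0.0827.

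Of 16 erythroid factors, 5 were called higher, against 5.55% of all probes. They were Hemgn (r = 0.244), Nfe2 (0.216), Tal1 (0.205), Lmo2 (0.185) and Gata1 (0.157). Tal1, Lmo2 and Gata1 act in a shared transcription complex, and Nfe2 drives globin genes. Klf1, the activator of adult beta globin, was at 0.0480, Bcl11a, a silencer of embryonic globin, at -0.00596 and the erythropoietin receptor gene Epor at 0.119, none of them called. Gfi1b, Myb, Zfpm1, Trim10, Ikzf1, Tfrc and Sox6 had r from -0.0336 to 0.0710, and Rhd is on this list too. After quantile normalization the calls of Hemgn, Nfe2, Tal1, Lmo2, Gata1, Epb42 and Ermap ended, with r from 0.0660 to 0.191. Gata1 (limma adjusted p = 0.0408) also lost its call under 6 other alternatives.

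Genes of red cell function outside these lists were called in both directions. Of 16 probes of red cell enzymes, 3 were called higher and 1 lower, beside 5.55% and 8.22% of all probes. Those higher were 1 of 3 probes of the mitophagy receptor gene Bnip3l (r = 0.158, the others -0.0115 and 0.00936), 1 of 2 of the peroxiredoxin gene Prdx2 (0.156, the other 0.134) and Bpgm (0.154), whose product makes the effector that lowers the oxygen affinity of haemoglobin. Pklr, the red cell pyruvate kinase, was lower (-0.169). Of 16 probes of haem and iron clearance, haptoglobin, Hp, was higher (0.190) and 1 of 2 probes of Slc48a1, a haem transporter, lower (-0.161, the other -0.0848).

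Markers of other blood and bone marrow cells moved with beta globin in part, and their counts stand beside 5.55% higher and 8.22% lower among all probes. Of 19 neutrophil probes, 3 were called higher: S100a9 (r = 0.243), S100a8 (0.236) and Mmp9 (0.163). Ngp was at 0.121 over all arrays and was not called (limma adjusted p = 0.118). Of 10 platelet probes, 4 were higher, Ppbp, Gp9 (0.185), Vwf (0.177) and Pf4 (0.176), and Itgb3 was lower (-0.186). Of 9 bone probes, 3 were higher, among them Ctsk (0.201), and Sp7 was lower (-0.187). Of 9 B cell, 11 T and NK cell and 8 spleen red pulp probes, none was called with Hbb-b1 by limma; at an unadjusted p under 0.05 there were 1 B cell, 4 T and NK cell and 1 red pulp probe. With Hbb-b2, Cd4 of the T cell list was lower (r = -0.161). The part of these cells in the beta globin values was not tested.

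With Hbb-b1, the calls in the remaining lists were all higher, beside 5.55% of all probes higher and 8.22% lower. None of 5 skeletal muscle probes, 8 keratinocyte probes and 2 Y-linked probes was called with Hbb-b1 by limma, against 1, 2 and 1 at an unadjusted p under 0.05, and r with Eif2s3y was 0.113. Among 13 slow fibre probes 1 of 5 of the tropomyosin gene Tpm3 was called (0.172, the others from -0.0085 to 0.120) and among 8 adipocyte probes Scd1 (0.189), both higher. Tek (0.285) and Kdr (0.210), receptors of the vessel wall, were the called members of 10 endothelial probes. Of 14 macrophage probes 3 were higher, led by Mrc1 (0.211), and of 14 cell division probes 3, led by Ccna2 (0.173). In the hypoxia response list, 7 of 26 probes were higher, among them 5 of the 14 Ldha probes, beside Hif1a (0.209) and Ndrg1 (0.200).

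**Figure D3:**
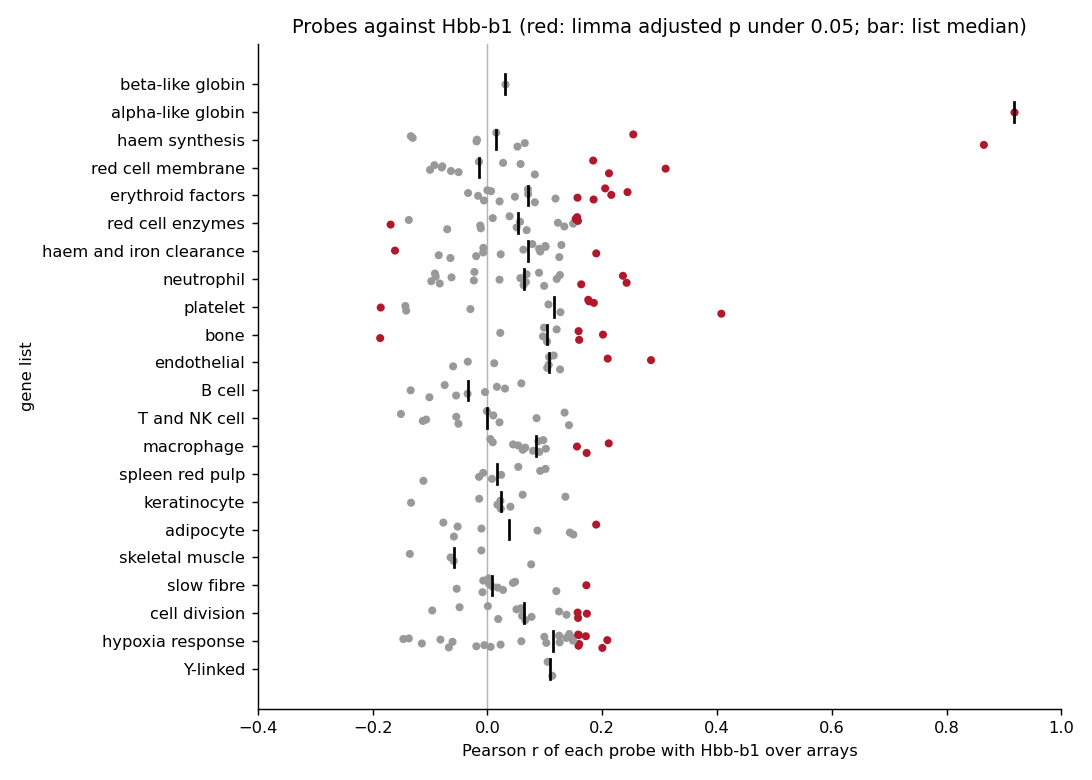
Pearson r with Hbb-b1 over arrays of each probe of 22 gene lists, 1 point a probe, red where limma's adjusted p was under 0.05, with the list's median as a black bar. Hba-a1 (0.917) and Alas2 (0.865) stand alone at the right, Ppbp follows at 0.408, and nearly all other points lie between -0.2 and 0.3.

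The small difference between both beta globin probes was examined for 3 groups in the same way. Over all 319 arrays the rule for 3 groups was not met (BIC gain 4.82, groups 3.06 SDs apart), because the gain was under 10. The group means of that fit were -0.13, -0.01 and 0.10. Animal 295, with Hbb-b1 at -0.43 and Hbb-b2 at 0.00, had a difference of -0.43, far from all others. Without that array, an alternative chosen after seeing the data, the BIC gain was 64.8, with group means of -0.12, -0.01 and 0.10, a spacing of 3.80 SDs and 76, 163 and 79 arrays. The spacing of 0.11 log2 units is small beside the SD of 1.13 of Hbb-b1 itself. After quantile normalization the 3 groups were not found (BIC gain -5.77). Without the arrays of outlying SD or above the B cell or neutrophil gap the gain was 0.156 to 1.73, under 10 as well. Without the arrays above the keratinocyte gap the rule was met (BIC gain 59.8, groups 3.85 SDs apart, 65, 147 and 74 arrays).

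Genes of chromosome 7 went with this difference. The limma fit on it called 198 probes higher (0.854%) and 196 lower (0.845%). Of the probes with a current symbol, 91 of 1013 on chromosome 7 were called (8.98%), against 126 of 11514 on the other chromosomes (1.09%). A further 177 called probes, of 10661 without a current symbol (1.66%), could not be placed on a chromosome. An absolute r over 0.35 was found for 22 probes without a current symbol. Among probes with one, there were 40 on chromosome 7 and 3 elsewhere. Those 3, named after their values were seen, were Gpx2 on chromosome 12 (r = 0.434), Tdo2 on chromosome 3 (-0.378) and Lhx6 on chromosome 2 (-0.367). Gpx2 had another probe at 0.0737, which was not called.

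Among genes with a current symbol, the 5 closest to the difference in each direction were all on chromosome 7. The largest absolute r of a probe without a current symbol, which could not be placed, was 0.756. Rps3, a protein of the small ribosomal subunit, ran from -1.64 over -0.19 to 1.42 and had r = 0.786, with a slope of 6.01 ± 0.26. Its values met the rule for 3 groups (BIC gain 51.5, 3.54 SDs apart, 74, 156 and 89 arrays). Its other probe had r = -0.144 and was not called (limma adjusted p = 0.143), so the probes of Rps3 disagreed. Aqp11, a water channel, had r = 0.687, Thrsp, a regulator of fat synthesis, 0.606, Trim30d, 0.589 and Myo7a, an unconventional myosin, 0.562. In the other direction were Me3, mitochondrial malic enzyme (-0.698), Ngrn (-0.655), Kcne3, a potassium channel subunit (-0.601), Trim21, a cytosolic antibody receptor (-0.578) and Myod1, the muscle regulatory factor (-0.524). Me3 ran from -1.09 over 0.12 to 0.90. Within the 8 blocks of animal numbers the r of Rps3 was between 0.663 and 0.857 and that of Me3 between -0.817 and -0.618. Since the Rps3 values met the rule for groups, its r may describe how groups of arrays line up rather than a steady slope.

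**Figure D4:**
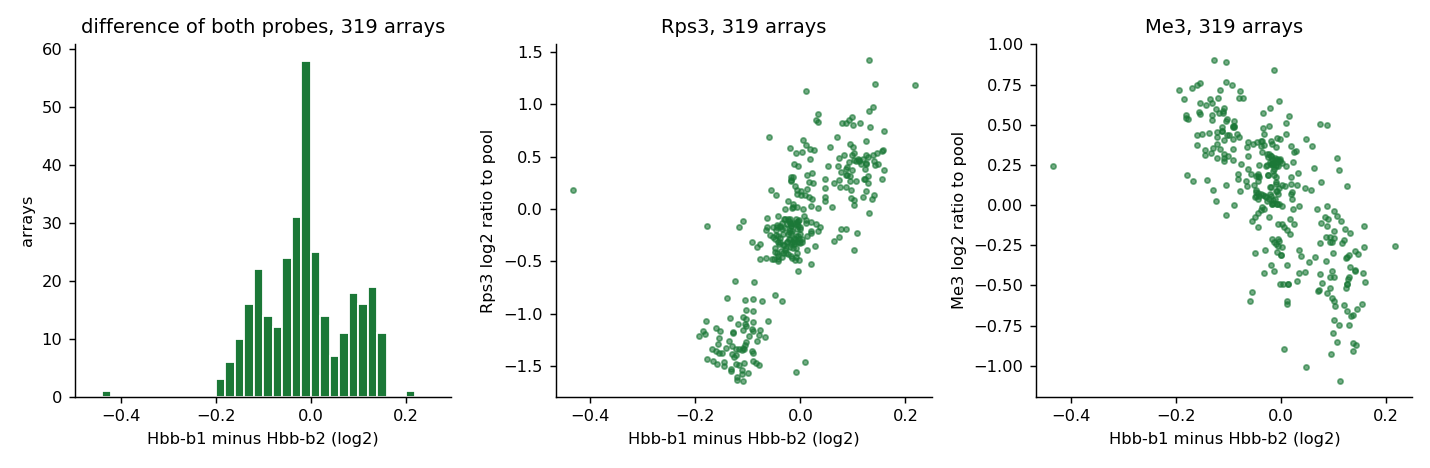
The difference Hbb-b1 minus Hbb-b2 in log2 units on 319 arrays, as a histogram and against the log2 ratios of Rps3 and Me3, 1 point an array. Rps3 rises and Me3 falls along the difference (r 0.786 and -0.698), and the lone array at -0.43 is animal 295. Over all 319 arrays the rule for 3 groups was not met.

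The genes near the beta globin cluster held more of these calls than the rest of the chromosome. By RefSeq's gene order (GRCm38.p6, used for order alone), the 50 genes with a tested probe on each side of the cluster had 135 probes, of which 30 were called (22.2%), 15 in each direction. On the rest of chromosome 7, 61 of 877 probes were called (6.96%); these shares are descriptions, with no test over genes. By gene, 27 of the 100 neighbours were called, 22 before the cluster and 5 after it. Trim21 was 7 places before the cluster, Rps3 44 and Me3 69, while Trim30d was 10 places after it and Sox6, which silences embryonic globin, 87. The places of the other genes named with the difference are not given here. Sox6 was the erythroid list member called with the difference (r = 0.492). Of the 100 neighbours, 32 were olfactory or vomeronasal receptor genes.

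For the beta globin level itself, 3 of the same 135 probes near the cluster were called higher and 8 lower in the Hbb-b1 fit, beside 5.55% and 8.22% of all probes. Rps3 had r = -0.141 and Me3 0.0221 with Hbb-b1. The genes that followed the level were not called with the difference, with r of -0.0623 for Hba-a1, -0.129 for Alas2, -0.0607 for Trp53rkb and -0.149 for Cnot7. For the closest followers of Hbb-b1 this is no separate result, because their r with the difference is largely set by that of Hbb-b1. A fit of the difference with the Hbb-b1 level as a covariate, added after seeing the data, called 418 probes, against 394 without it.

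**Figure D5:**
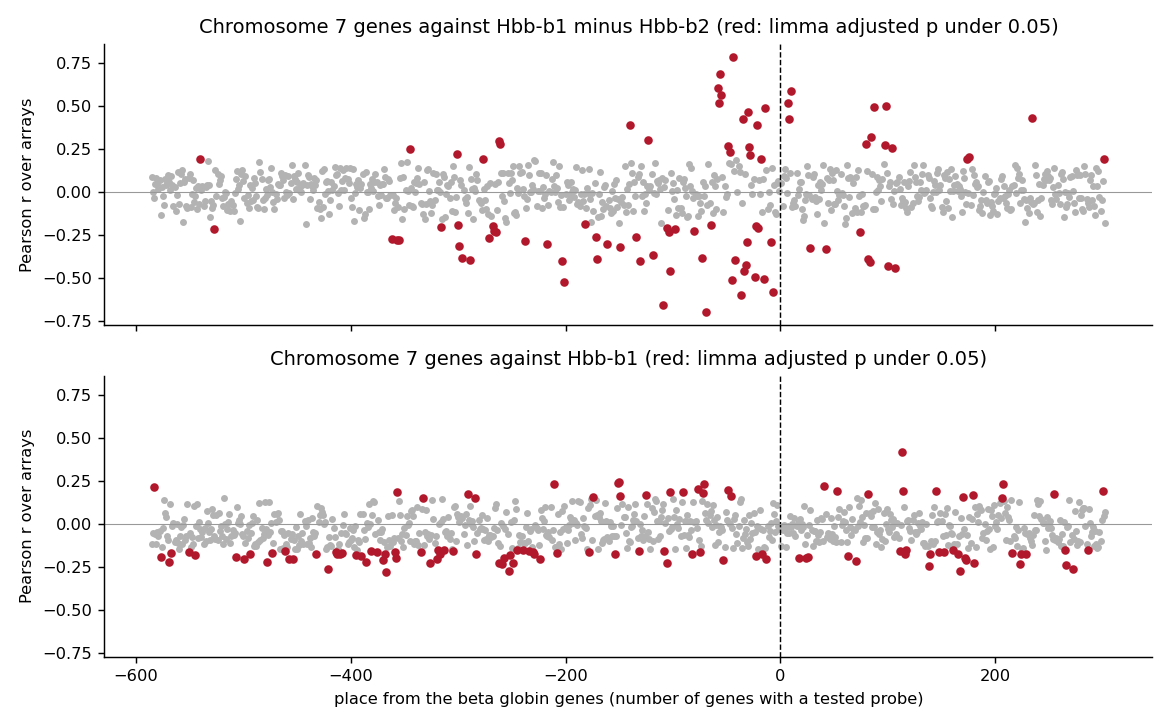
Pearson r over arrays of 887 genes of chromosome 7, 1 probe a gene (the one with the largest absolute r with the difference), by place from the beta globin cluster (dashed line), with the difference above and with Hbb-b1 below, red where limma's adjusted p was under 0.05. With the difference, the points farthest from 0 are Rps3 (0.786), 44 places before the cluster, and Me3 (-0.698), 69 places before it, which with Hbb-b1 lie at -0.141 and 0.0221.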

How the data were processed

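Each of the 319 arrays has 2 colours and carries muscle RNA of an F2 mouse in Cy3 and the common pool in Cy5, per the labels. The deposited values are log10 ratios that end at exactly -2 and 2, a 100-fold ratio. The base and the direction were read from the values, and the authors' image processing, background correction and normalization are not given in the sources used here. Values were multiplied to the log2 scale and not normalized again. The probe-to-gene table gave 1 symbol to 13639 of 23382 probes, several to 48 and none to 9695, and 12647 matched a current RefSeq symbol. A probe was tested where at least 80% of arrays gave it a value (23190 probes). Each was fitted on 1 beta globin probe, or on their difference, with lmFit and eBayes of limma 3.58.1 (R 4.3.3), two-sided, with Benjamini-Hochberg adjustment and a threshold of 0.05. On simulated data for Hbb-b1, 90 of 100 probes with a slope of 0.1 and 98 of 100 with 0.25 were recovered. Among the 23188 simulated probes there were 11 false calls. The simulated probes varied independently of each other, while the first principal component of the real probes held 18.3% of their variance. The false calls therefore do not measure the error rate in the real data. Relations between single measures used Pearson's r and Spearman's rho with 100000 two-sided permutations. They were computed within each side of a gap where a measure split by over 4 SDs with at least 15 arrays a side. A gap is the cut of largest sum of squares between sides, and values can run on through it. Nothing in the labels beyond the animal number says whether arrays share a batch, and p-values measure the spread between these arrays. A pair of arrays carries the animal number 227, and both were kept as separate arrays. In the order of the samples 1 of them stands between animals 326 and 328, and whether both come from the same animal was not tested. Both were placed in blocks of numbers by that label. Without both the calls were 3216 for Hbb-b1, 3329 for Hbb-b2 and 434 for the difference. Named are, for each beta globin probe, the 10 genes of largest r in each direction (5 for the difference) among called probes with 1 current symbol and without values at both ends of the scale, every measured gene of the erythroid lists and Ngp, and leading genes of other lists; other called list genes were named after their values were seen. The members and lists were chosen with earlier results of these data known. Precision is limited by how many arrays there are. The alternatives were array medians subtracted, quantile normalization, first principal component removed, ranks, no filter on blanks, blocks of 50 animal numbers and sets of arrays left out.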

Additional observations from a re-analysis of the deposited data

How the results depend on the processing

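Apart from Ngp, the close and weaker followers given next kept their call under all 12 alternatives tried. With Hbb-b1, r of Trp53rkb stayed between 0.971 and 0.988, Cnot7 between 0.944 and 0.971, Hba-a1 between 0.879 and 0.946, Alas2 between 0.857 and 0.916, Jup between 0.607 and 0.779, Slc4a1 between 0.285 and 0.326 and Ppbp between 0.326 and 0.597. With the difference, Rps3 stayed between 0.658 and 0.835 and Me3 between -0.729 and -0.554. Ngp was called with Hbb-b1 under 1 of the 12, ranks. The numbers of probes called moved far more. For Hbb-b1 (3193), they were 133 after quantile normalization, 4912 with ranks, 574 without arrays of outlying SD, 601 without those above the B cell gap and 1694 with blocks of animal numbers. For Hbb-b2 (3207), they were 164 after quantile normalization, 390 without arrays of outlying SD, 666 without those above the B cell gap, 2094 without those above the neutrophil gap and 1928 with blocks. For the difference (394), they were 1384 after quantile normalization, 1850 with ranks, 242 with the first principal component removed, 182 without arrays above the neutrophil gap, 718 without those above the keratinocyte gap and 189 with blocks. The share called higher for Hbb-b2 was 41.2%, and 57.5% with array medians subtracted and 72.6% after quantile normalization; for the difference it was 50.3%, 58.5% and 64.8%, and 64.5% without arrays above the keratinocyte gap and 67.1% without those above the B cell gap. The cause was not tested. Below the Ngp gap, r turned to -0.0269 (Hbb-b1) and -0.0223 (Hbb-b2) after quantile normalization, and to -0.0122 and -0.00397 with the component removed. With the array median, r turned from -0.153 to 0.00129 and from -0.148 to 0.0102 after quantile normalization. The BIC gain for 3 groups of the difference was 64.8 without animal 295 and 59.8 without the arrays above the keratinocyte gap, against 4.82 over all arrays, 1.73 without those of outlying SD, 0.156 without those above the B cell gap, 0.723 without those above the neutrophil gap and -5.77 after quantile normalization; these 6 alternatives were chosen after seeing the data. Of the single genes and relations, 2222 alternative values kept their direction and side of the threshold, 48 lost the call, 28 gained it and 6 turned direction (the r values given for Ngp and the array median). Of the counts called in 1 direction, 35 changed by over 1.5 times. Arrays were not left out one by one. No paired analysis was possible because there is 1 group. Signal over background is not in the values, so what dim probes limit is unknown.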
